A study of Mus musculus with 10 samples.

Results

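The genes described here are the mouse zinc finger protein genes named Zfp and a number below 600, with no letter after the number. They were chosen by name among the autosomal protein-coding genes of the GENCODE M21 annotation, and 188 of 20696 genes had such a name. The cells were microglia, the macrophages that reside in brain tissue, sorted as CD45+ CD11b+ CX3CR1+ whole cells from C57/Bl6 mice of wild-type genotype. H3K4me3 ChIP-seq was carried out on 2 libraries with 2 input libraries, and PLAC-seq on 2 libraries that the authors combined in 1 list of interactions. Another 4 libraries, Hi-C of wild-type and Sall1 enhancer knockout microglia, were not used here, and every value below is from wild-type cells. The labels name no separate animals for the replicates, and the spread between them may be technical.

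Most Zfp genes encode proteins with C2H2 zinc fingers, small folds held by a zinc ion that read DNA sequence, and the finger array sets which sequence a protein binds. Many also carry a KRAB domain, which recruits the corepressor TRIM28 and with it histone methyltransferases and heterochromatin proteins, and such proteins are known for silencing transposable elements and imprinted genes. Genes of the KRAB type arose largely by tandem duplication and lie in clusters of related neighbors, whereas many transcription factors with the same name stem stand alone. The name is not a functional class, and single members bind RNA or act in ubiquitin transfer instead.

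H3K4me3 is a trimethylated lysine on the tail of histone H3 found at active promoters, and PLAC-seq enriches DNA contacts that involve such promoters. A gene was called marked when both replicates had an H3K4me3 peak no further than 1 kb from a transcription start site (TSS) of the gene. The tallest of these peaks gave the H3K4me3 value of the gene, in tags per 10 M mapped tags. An interaction was assigned to a gene when a 5 kb bin of the interaction contained a TSS of that gene, which means that genes with a common bin have common interactions. A Zfp gene was called clustered when the TSS of another gene named Zfp and a number lay within 250 kb, and isolated otherwise. By this definition 111 genes were clustered and 77 isolated.

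The H3K4me3 libraries held 12.8 and 13.4 M tags with 27845 and 26574 peaks, and the PLAC-seq list held 26689 interactions, whose sequencing depth is unknown. Of 5 microglial markers, Csf1r, Sall1, Tmem119, Cx3cr1 and P2ry12, all were marked, with values from 134.8 to 309.6 in either replicate. Among markers of other cells, the oligodendrocyte gene Mbp was also marked, at 162.8 in replicate 1 and 210.3 in replicate 2, and the neuronal gene Snap25 reached 10.1 and 8.21. Gfap, Aqp4, Mog and Cd3e had no peak near a TSS, and Rbfox3 and Cldn5 had one in replicate 1 only. The part of other cells in the values of Zfp genes was not tested.

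Promoter sequence is shown first for 8 genes that the results below turn on, as 300 bases from 250 bases before to 50 after a RefSeq TSS of GRCm38.p6, the TSS nearest to the peak where there was one. CG dinucleotides, whose density is a known correlate of H3K4me3, stand in capitals. Zfp598 had the tallest H3K4me3, Zfp217 many interactions without sharing its bin with another gene, and Zfp3 the strongest interaction. Zfp58 lies in the cluster with the most Zfp genes, Zfp260 and Zfp146 are joined by an interaction, and Zfp352 and Zfp536 were unmarked with few and with many CG dinucleotides.
Zfp598, chr17:24669437-24669736, strand +: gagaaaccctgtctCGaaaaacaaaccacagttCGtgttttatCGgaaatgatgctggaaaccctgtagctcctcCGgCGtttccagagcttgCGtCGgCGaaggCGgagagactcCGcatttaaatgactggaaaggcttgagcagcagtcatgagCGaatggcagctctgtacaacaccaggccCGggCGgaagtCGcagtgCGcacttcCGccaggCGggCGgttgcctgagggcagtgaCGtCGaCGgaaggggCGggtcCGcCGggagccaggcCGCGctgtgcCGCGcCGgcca
Zfp217, chr2:170131171-170131470, strand -: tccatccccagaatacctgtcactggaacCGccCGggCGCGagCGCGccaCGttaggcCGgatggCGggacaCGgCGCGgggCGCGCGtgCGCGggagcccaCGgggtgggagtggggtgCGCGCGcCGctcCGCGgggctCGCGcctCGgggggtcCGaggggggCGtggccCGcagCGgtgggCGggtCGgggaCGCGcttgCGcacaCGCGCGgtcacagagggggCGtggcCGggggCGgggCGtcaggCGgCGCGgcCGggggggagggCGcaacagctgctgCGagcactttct
Zfp3, chr11:70764197-70764496, strand +: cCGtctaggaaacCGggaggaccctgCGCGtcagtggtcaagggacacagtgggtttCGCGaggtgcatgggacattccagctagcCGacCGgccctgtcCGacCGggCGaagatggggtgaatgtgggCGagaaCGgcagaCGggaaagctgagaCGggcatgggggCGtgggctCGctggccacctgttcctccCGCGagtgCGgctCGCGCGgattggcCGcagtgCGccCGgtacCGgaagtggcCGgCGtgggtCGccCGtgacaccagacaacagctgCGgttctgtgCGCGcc
Zfp58, chr13:67500473-67500772, strand -: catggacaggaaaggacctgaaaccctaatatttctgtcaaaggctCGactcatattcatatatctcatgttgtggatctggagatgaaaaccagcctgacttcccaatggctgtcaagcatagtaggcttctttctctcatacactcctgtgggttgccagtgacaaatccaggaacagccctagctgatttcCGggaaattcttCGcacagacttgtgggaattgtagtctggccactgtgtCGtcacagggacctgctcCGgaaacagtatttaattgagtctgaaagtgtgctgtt
Zfp260, chr7:30094826-30095125, strand +: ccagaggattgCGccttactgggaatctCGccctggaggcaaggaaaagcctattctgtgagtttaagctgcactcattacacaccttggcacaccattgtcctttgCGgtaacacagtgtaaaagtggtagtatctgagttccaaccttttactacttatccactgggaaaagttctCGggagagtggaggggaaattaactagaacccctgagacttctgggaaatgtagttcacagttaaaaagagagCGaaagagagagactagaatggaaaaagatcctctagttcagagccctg
Zfp146, chr7:30169692-30169991, strand -: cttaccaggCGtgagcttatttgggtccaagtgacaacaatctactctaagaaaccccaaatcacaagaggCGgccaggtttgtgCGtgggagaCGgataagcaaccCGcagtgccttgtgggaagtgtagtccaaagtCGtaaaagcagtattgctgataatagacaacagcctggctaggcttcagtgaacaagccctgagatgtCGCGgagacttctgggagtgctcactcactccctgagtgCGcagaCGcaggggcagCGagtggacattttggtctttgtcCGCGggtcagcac
Zfp352, chr4:90218570-90218869, strand +: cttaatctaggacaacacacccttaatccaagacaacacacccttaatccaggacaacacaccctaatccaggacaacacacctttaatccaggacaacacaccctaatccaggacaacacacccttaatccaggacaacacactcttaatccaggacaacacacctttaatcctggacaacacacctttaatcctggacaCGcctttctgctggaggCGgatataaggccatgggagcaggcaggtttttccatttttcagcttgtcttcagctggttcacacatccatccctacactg
Zfp536, chr7:37769703-37770002, strand -: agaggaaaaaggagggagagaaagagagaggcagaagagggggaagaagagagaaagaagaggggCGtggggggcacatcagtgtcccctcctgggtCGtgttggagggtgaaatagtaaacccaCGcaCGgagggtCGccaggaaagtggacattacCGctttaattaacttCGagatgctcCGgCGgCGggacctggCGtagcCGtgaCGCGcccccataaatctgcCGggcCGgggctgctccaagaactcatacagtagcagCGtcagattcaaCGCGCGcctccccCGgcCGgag

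The promoters differed widely in composition. That of Zfp217 held 49 CG dinucleotides at 79% G and C, that of Zfp3 held 34 and that of Zfp598 held 29. The clustered genes were poorer, with 13 in the promoter of Zfp146 and 5 each in those of Zfp58 and Zfp260. Among the unmarked genes, the promoter of Zfp352 held 2 and that of Zfp536 held 22. Both CG-poor clustered genes carried peaks above 196.6, the median of the marked Zfp genes. Zfp58 had 257.1 in replicate 1 and 219.3 in replicate 2, and Zfp260 had 223.6 and 261.8.

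Nearly every Zfp gene was marked. A peak was present in both replicates at 176 of 188 genes, or 93.6%, where 59.4% of all autosomal protein-coding genes had one. Replicate 1 had a peak at 179 of the genes and replicate 2 at 176, so the 3 genes with a peak in a single replicate all had it in replicate 1. For comparison, 134 of 170 genes named Zfp with a number of 600 and up were marked (78.8%), and 37 of 39 genes of the Zbtb family, zinc finger proteins with a BTB domain, were marked. No test was made of these shares, since the genes are a named list and not samples.

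**Figure D1:**
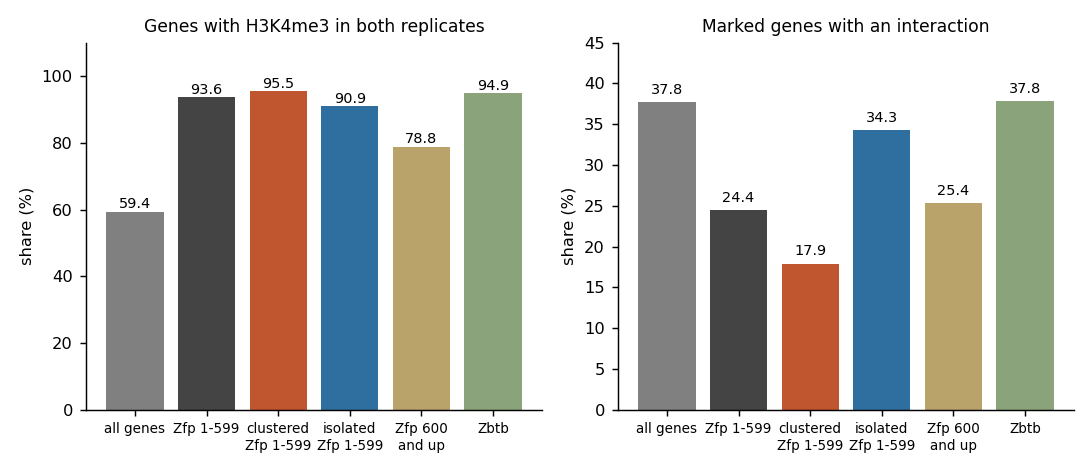
Share of genes with H3K4me3 in both replicates (left, percent of all genes of a group) and share of marked genes with at least 1 interaction (right, percent), for all autosomal protein-coding genes, the Zfp genes numbered below 600, their clustered and isolated members, Zfp genes numbered 600 and up, and Zbtb genes. Zfp genes numbered below 600 were marked at 93.6%, above all genes at 59.4%, but 24.4% of the marked ones had an interaction, below all marked genes at 37.8%.

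The height of the mark was less unusual than its frequency. The median value of the marked Zfp genes was 196.6 tags per 10 M, against 220.4 over all marked genes, 205.0 for Zfp genes numbered 600 and up and 255.0 for Zbtb genes. The middle part of the distribution, from the lower to the upper quartile, ran from 150.3 to 261.1 for the Zfp genes and from 126.5 to 282.4 over all marked genes. The Zfp genes therefore lay closer together, and 87.5% of them exceeded 100 tags per 10 M against 79.0% of all marked genes. The peak centered at a median of 122.5 bases downstream of the nearest TSS in replicate 1 and 121.5 in replicate 2, against 144 and 142 over all marked genes. Scaled input in these peaks had medians of 1.2 and 1.4 tags, the same as over all marked genes.

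Of the peak centers at Zfp genes, 40.2% in replicate 1 and 43.8% in replicate 2 fell in an annotated UTR of the gene and 37.4% and 38.6% in an intron. The rest lay in coding exons or outside the gene.

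Replicates gave similar values. The log2 ratio of replicate 2 to replicate 1 had a median of 0.02 and an SD of 0.29 over the 176 genes, and 175 of them differed by a factor of 2 or less. The largest difference was at Zfp9, with 55.3 in replicate 1 and 24.6 in replicate 2. Zfp365, a gene linked to genome stability, had 60.0 and 109.6, Zfp7 had 31.2 and 53.7, Zfp599 had 46.7 and 27.6, and Zfp367 had 201.0 and 331.9. All but Zfp367 lay below the median of the family in both replicates, so the differing genes were mostly weakly marked ones.

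**Figure D2:**
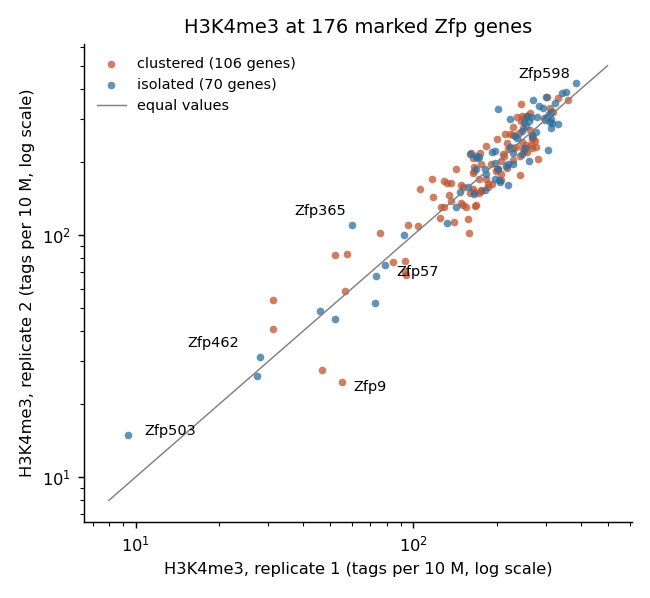
H3K4me3 of each of the 176 marked Zfp genes in replicate 1 (horizontal axis) and replicate 2 (vertical axis), as tags per 10 M with both axes logarithmic, with clustered and isolated genes in separate colors and a line of equal values. Points follow the line, from Zfp503 at 9.35 and 14.9 to Zfp598 at 386.4 and 425.2, and the clustered genes reach neither end.

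The 8 tallest genes were chosen by rank of the mean value. Zfp598, a ubiquitin ligase that senses collided ribosomes, had 386.4 in replicate 1 and 425.2 in replicate 2. Zfp91, also a ubiquitin ligase, had 355.3 and 388.6, and Zfp106, an RNA-binding protein, had 343.6 and 384.9. These genes were followed by Zfp24, a transcription factor, with 359.9 and 362.5. Zfp273 of the same cluster as Zfp58 had 332.7 and 369.2, Zfp277 had 322.5 and 349.8, Zfp292 had 300.7 and 371.5, and Zfp574 had 301.5 and 370.7. Of these 8 genes Zfp24, Zfp273 and Zfp574 were clustered and the other 5 isolated. Neighbors in this order overlapped in their range over the replicates, but replicate 2 was the higher at each of the 8 genes. Within each replicate, Zfp598 ranked above Zfp91 and Zfp91 above Zfp106. Zfp24 changed its place, above Zfp91 in replicate 1 and below Zfp106 in replicate 2.

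The 5 lowest of the marked genes all lay far below the family median of 196.6. Zfp503, a repressor that acts in the developing forebrain and limb, had 9.35 in replicate 1 and 14.9 in replicate 2, from 12 and 20 tags. Zfp507 had 27.3 and 26.1, Zfp462, a chromatin factor of early development, had 28.0 and 31.3, Zfp114 had 31.2 and 41.0, and Zfp599 had 46.7 and 27.6. Of the genes named for a known role, the paralogs Zfp423 and Zfp521, regulators of adipocyte and neural differentiation, were also low, with 52.2 and 44.8 at Zfp423 and 72.5 and 52.2 at Zfp521.

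Of 26 genes named for a known role, 25 were marked (96.2%) and 7 of these had an interaction (28.0%), near the 93.6% and 24.4% of all the Zfp genes. Zfp36, whose protein tristetraprolin drives decay of cytokine messages, had 202.6 in replicate 1 and 167.8 in replicate 2. Zfp57 and Zfp445, which maintain genomic imprints, had 78.7 and 75.3, and 242.3 and 211.8, so the former was the weaker in both replicates. Zfp568, which represses a placental promoter of Igf2, had 296.0 and 303.6. The transcription factors Zfp143, Zfp148, Zfp281, Zfp263 and Zfp384 had values between 196 and 340.1 in either replicate. Zfp207, a spindle protein, had 314.0 and 321.5.

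The gene left out of that count was Zfp42, also called Rex1, a marker of pluripotent cells, which had no peak. The other 11 unmarked genes were Zfp97, Zfp345, Zfp352, Zfp366, Zfp433, Zfp474, Zfp488, Zfp534, Zfp536, Zfp541 and Zfp575. Zfp345 had a peak of 7.79 in replicate 1 only, Zfp541, a gene of male meiosis, one of 6.23, and Zfp536, a repressor of neural differentiation, one of 5.45. No peak was listed for the other 9 in either replicate. Zfp352 is known from preimplantation embryos, and Zfp488 from the oligodendrocyte lineage. No unmarked Zfp gene had an interaction. MAPS, the caller, requires H3K4me3 in a bin of the interaction, which can be the other bin. Gfap, also without a peak near a TSS, had 1 interaction. The share of all unmarked genes with an interaction was not computed, so the absence at these Zfp genes cannot be placed.

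A list of genes for KRAB silencing held corepressors and members of the HUSH complex. Of its 28 genes, 28 had H3K4me3 in both replicates, where 59.4% of all genes did, with mean values from 143 to 382. An interaction was found at 10 of them (35.7%), near the 37.8% of all marked genes. Trim28, the corepressor itself, had 289.8 and 344.6 and no interaction. Setdb1, the H3K9 methyltransferase it recruits, had 146.5 and 166.3 with 3 interactions, and Atf7ip, a partner of Setdb1, had 171.4 and 196.2 with 6.

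Most genes of both classes were marked. H3K4me3 was present in both replicates at 106 of 111 clustered genes (95.5%) and at 70 of 77 isolated genes (90.9%). The height differed more, with a median of 188.7 for clustered and 224.5 for isolated genes. By replicate, the medians were 185.4 and 187.6 for clustered genes and 222.0 and 218.2 for isolated ones. The gap was thus present in both replicates, but replicates cover the same genes and do not measure the spread between genes. Quartiles overlapped, from 142.8 to 243.7 and from 181.7 to 291.1. Both ends of the range belonged to isolated genes, which ran from 12.1 to 405.8 as a mean of both replicates, while clustered genes ran from 36.1 to 361.2.

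Promoter composition moved with the classes. A RefSeq promoter was matched for 152 of the 188 genes. The median number of CG dinucleotides was 12 over 90 clustered genes and 21 over 62 isolated genes, against 15 over 15680 promoters of all autosomal genes. Among marked genes alone the medians were 12 and 21 as well, against 22 over 9630 promoters of all marked autosomal genes. All unmarked autosomal genes had a median of 3 over 6050 promoters. The promoters of the unmarked genes held a median of 5 over 9 genes, with a range from 2 to 22, and those of the marked genes 16 over 143, with a range from 1 to 49. The part of promoter composition in the H3K4me3 values was not tested.

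**Figure D3:**
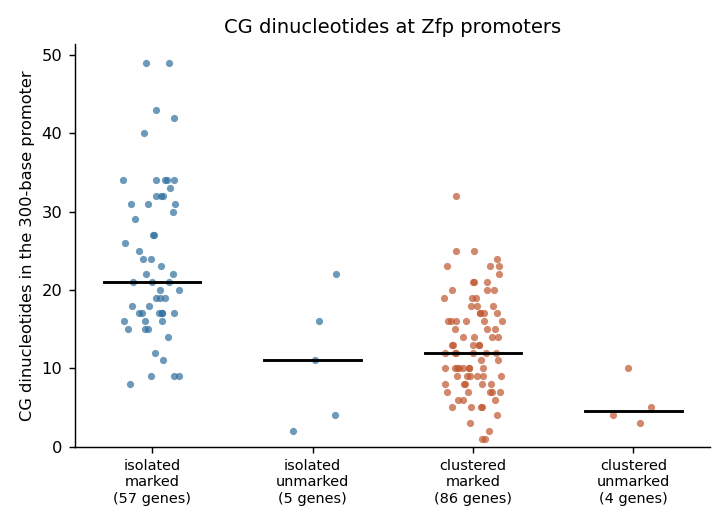
Number of CG dinucleotides in the 300-base promoter (vertical axis) of each Zfp gene with a matched promoter, split by class and by H3K4me3 in both replicates, with bars at the medians. Marked isolated genes had a median of 21 and marked clustered genes of 12, while the 9 unmarked genes ran from 2 to 22.

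Short motifs were looked for in the same promoters on both strands. The ZNF143 motif ACTACAATT, bound by the product of the family member Zfp143, occurred in 8 of 152 Zfp promoters (5.26%) and in 0.599% of all promoters of the same length. It was found at Zfp1, Zfp58, Zfp93, Zfp108, Zfp111, Zfp128, Zfp180 and Zfp454, all marked and all but Zfp1 clustered. Of these genes, Zfp93, Zfp108, Zfp111 and Zfp180 lie in the same cluster on chromosome 7, around Zfp61, so the matches are not independent loci. The motif of the clustered gene Zfp58 can be read on the other strand of its sequence above. The ETS motif CCGGAAGT occurred in 13.2% of Zfp promoters and 5.73% of all, the NRF1 motif TGCGCANGC in 8.55% and 6.08%, and the YY1 motif ATGGCGGC in 5.26% and 3.49%. The TATA motif TATAAA was in 6.58% of Zfp promoters against 12.7% of all, and CCAAT in 36.2% against 37.9%. All promoters include those of unmarked genes. Among marked genes alone, the ZNF143 motif was in 5.59% of Zfp promoters and 0.831% of all, and the ETS motif in 13.3% and 8.88%. The other motifs stood near the shares of all marked genes. NRF1 was in 9.09% and 9.30%, YY1 in 5.59% and 5.41%, TATA in 6.29% and 5.85%, and CCAAT in 35.7% and 37.4%. A match describes the letters of the window and not binding, and no test was made.

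Zinc finger number was counted in the longest open reading frame of each gene's transcripts, as the C2H2 spacing of cysteines and histidines. Zfp genes had a median of 11 fingers, with 12 in clustered and 8 in isolated genes, and 5 isolated genes had none by this spacing. An exact KRAB pattern was found in 36 genes, 29 clustered and 7 isolated. Inspection of translated sequences showed that it misses near matches, and 7 looser patterns were then tried, so 8 in all gave between 36 and 74 genes. Over the 8 patterns, from 94.2% to 100% of the matching genes were marked and from 10.8% to 14.6% of the marked ones had an interaction. With the exact pattern, an interaction was found at 2 of 29 clustered and 3 of 7 isolated marked genes. Of marked genes without that match, 17 of 77 clustered and 21 of 63 isolated ones had an interaction. The parts of KRAB and of class in these shares were not tested. A gene without a match is not shown to lack the domain.

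Fewer marked Zfp genes than marked genes in general had an interaction. At least 1 was found at 43 of 176 marked Zfp genes, or 24.4%, where 37.8% of all marked autosomal genes had one. Marked genes numbered 600 and up stood at 25.4% and Zbtb genes at 37.8%. Within terciles of H3K4me3 set over all marked genes, the share was 19.0% for Zfp genes against 31.2% in the lowest, 18.9% against 39.0% in the middle and 40.9% against 43.1% in the highest. The shortfall was thus seen in the lower and middle terciles. Leaving out genes that share a TSS bin with another coding gene, the shares were 21.3% and 37.7%. The interactions are 1 combined list without replicates, so these shares carry no replicate error, and the absence of a call does not show that contact is lacking. With summits and single interactions only, the shares were 14.8% and 24.8%, and with a false discovery limit of 0.0001 they were 14.8% and 24.6%. At 20 or more read pairs they were 17.0% and 23.0%.

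The share was lower in clusters. Of marked genes, 19 of 106 clustered (17.9%) and 24 of 70 isolated (34.3%) had an interaction. In genes that share no bin, the shares were 14.4% and 32.8%. Within the terciles, clustered and isolated genes stood at 16.7% (7 of 42) and 25.0% (4 of 16) in the lowest. They stood at 14.6% (7 of 48) and 26.9% (7 of 26) in the middle, and 31.3% (5 of 16) and 46.4% (13 of 28) in the highest. The order was the same in each tercile, but it rests on few genes. The size of the gap depended on how interactions were called, with 12.3% and 18.6% under summits and single interactions only, the same shares under a false discovery limit of 0.0001, and 13.2% and 22.9% at 20 or more read pairs. By size of the cluster, 5 of 20 marked genes in pairs had an interaction, 6 of 19 in clusters of 3 or 4 Zfp genes, 5 of 25 in clusters of 5 to 9, and 3 of 42 in clusters of 10 or more (7.14%). The median H3K4me3 values over the same sizes were 204.2, 192.8, 209.5 and 176.9. All marked genes in clusters of 10 or more lie around Zfp58, Zfp14, Zfp61 and Zfp51, so they are not independent loci. Of the 3 with an interaction, Zfp260 and Zfp146 are the ends of the same one.

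**Figure D4:**
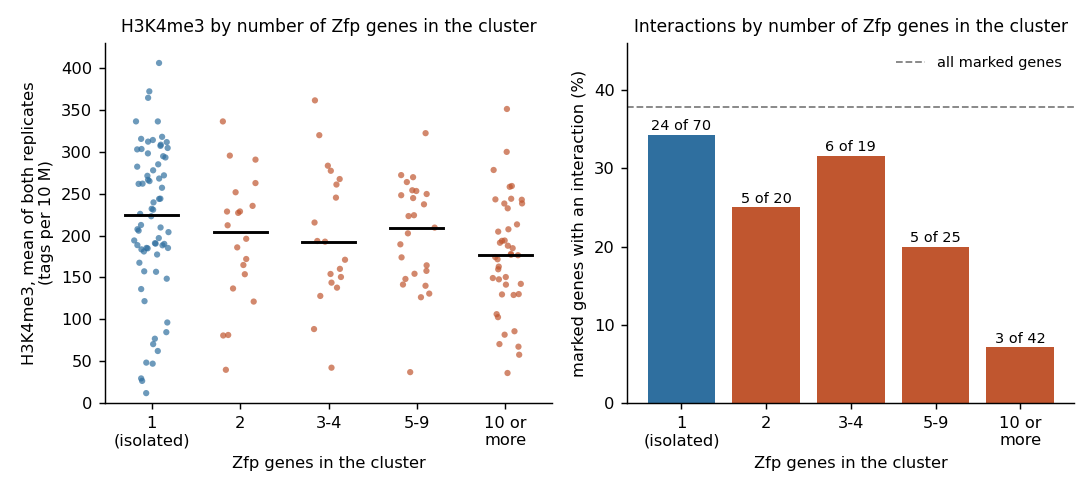
Left, H3K4me3 of each marked Zfp gene (mean of both replicates, tags per 10 M) by the number of Zfp genes in its cluster, with bars at the medians; right, share of marked genes with an interaction (percent) for the same sizes, with the counts above the bars and a dashed line at 37.8% for all marked genes. The share fell to 3 of 42 in clusters of 10 or more genes, whose median H3K4me3 was 176.9 against 224.5 for isolated genes. These 42 genes lie in the clusters around Zfp58, Zfp14, Zfp61 and Zfp51 and are not independent loci.

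The Zfp genes lay in 38 clusters that hold at least 1 of them, and chromosome 7 alone carried 54 of the 188 genes. Clusters are ranked here by their genes numbered below 600. Those around Zfp58 and Zfp14 held 13 each. The cluster on chromosome 13 around Zfp58 spanned 788 kb and held 19 Zfp genes, 13 of them numbered below 600. All 13 were marked, with mean values from 70.6 to 351.0, and none had an interaction. Zfp273 was its tallest gene, and Zfp458 had 281.2 in replicate 1 and 206.6 in replicate 2.

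A cluster on chromosome 7 around Zfp14 spanned 401 kb with 15 Zfp genes, 13 of them numbered below 600. All 13 were marked, from 106.3 to 299.8, with Zfp568 the tallest and Zfp420 the lowest at 103.6 and 108.9. It held the 1 interaction that joined TSS bins of different Zfp genes. Zfp260 was joined to Zfp146 over 70 kb by 30 read pairs against 9.04 expected, a ratio of 3.32. The values of Zfp146 were 234.5 and 230.5, close to those of Zfp260.

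The next, on chromosome 7 around Zfp61, spanned 506 kb with 12 Zfp genes, all numbered below 600, 11 of them marked and none with an interaction. Its median of 130.2 was the lowest of the 3, with Zfp180 at 267.2 and 249.1 and Zfp114 at 31.2 and 41.0. Zfp575, its unmarked gene, starts opposite the coding gene Ethe1 within 1 kb. The 3 clusters held 38 of the genes, 37 marked and 2 with an interaction. By all Zfp genes regardless of number, a cluster on chromosome 17 around Zfp51 ranked higher than those on chromosome 7, with 18 Zfp genes over 1073 kb. Only 5 of these were numbered below 600, all marked, with mean values from 57.9 to 238.4, and 1 had an interaction.

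The interactions were concentrated in few genes. The 43 genes took part in 124 distinct interactions, 16 of them in 1, 21 in 2 to 4, and 6 in 5 or more, and the 10 genes with the most held 56% of the 125 gene and interaction pairs. Of the 6 genes with 5 or more, 5 were isolated. Zfp277 had 19, over 110 to 255 kb, but its promoter is shared with Dock4 on the other strand, and in 15 of the 19 the other bin lay in the Dock4 gene. Contacts of Zfp277 and of Dock4 cannot be told apart in that bin. Zfp219 had 10, and 1 of its TSS bins also holds a TSS of Tmem253.

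Zfp217, known as an oncogene in human breast cancer, had 9 interactions in bins that hold no TSS of another coding gene, all on the upstream side. They spanned 10 to 205 kb, and 8 of the 9 other bins were intergenic, 4 of all 9 with H3K4me3 in both replicates. The remaining interaction joined 2 bins that each hold a TSS of Zfp217. The promoter values of Zfp217 were 311.6 and 293.9.

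Zfp3 had 6 interactions, all upstream at 120 to 245 kb, and held the strongest by ratio. This interaction spanned 130 kb, with 27 read pairs against 3.22 expected, a ratio of 8.38. Another Zfp3 interaction reached the promoter bin of the platelet receptor gene Gp1ba with 23 pairs against 3.70. Zfp251, the clustered gene with most interactions, had 6, among them one of 44 pairs against 6.74 expected to the bin with the promoters of Lrrc24 and C030006K11Rik. Zfp277 reached a ratio of 6.68 with 30 pairs, and Zfp219 reached 6.25 with 23 pairs. Zfp62 had 6 over 35 to 70 kb, 1 of them to the promoter bin of Mgat1, a glycosyltransferase gene.

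Zfp90 and Zfp516 followed with 4 each. A further 7 genes were tied at 3, namely Zfp12, Zfp143, Zfp296, Zfp319, Zfp326, Zfp526 and Zfp580. Zfp143 reached the promoter bin of Tmem41b. Zfp503, the lowest of the marked genes, had 2 interactions, both into the Lrmda gene, at 35 kb with 37 pairs against 12.9 and at 585 kb with 9 pairs against 1.56. The tallest genes without an interaction were Zfp91, Zfp106, Zfp24, Zfp273 and Zfp292.

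**Figure D5:**
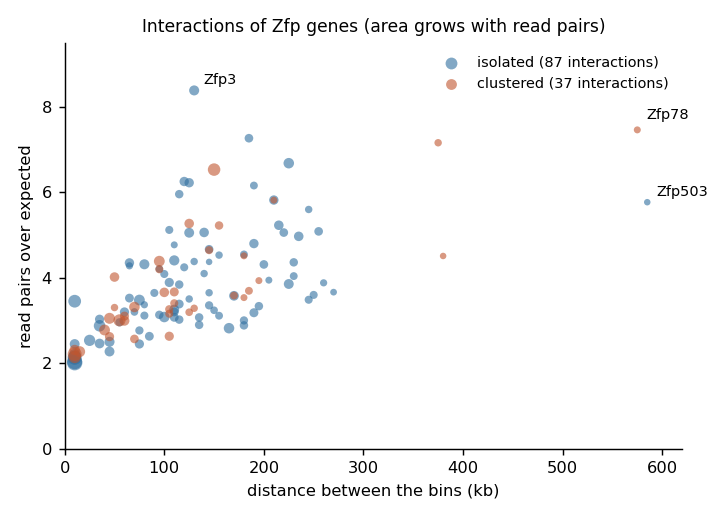
The 124 interactions of Zfp genes by distance between the bins (horizontal axis, kb) and read pairs over expected (vertical axis), in separate colors for isolated (87) and clustered (37) genes and with point area growing with the read pairs. Zfp3 holds the highest ratio at 130 kb, and Zfp78 and Zfp503 the longest distances at 575 and 585 kb.

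The interactions of Zfp genes were on the short side. Their median distance was 115 kb against 125 kb for the whole list, and 16.1% exceeded 200 kb against 28.5%. The median ratio was 3.56 against 4.03. Among the 14781 interactions with a coding TSS in a bin, the median distance was also 125 kb. Of these, 27.9% exceeded 200 kb, and their median ratio was 3.91. The other bin held a coding promoter in 22.6% of cases, a gene body in 45.2% and neither in 32.3%, against 17.2%, 49.9% and 32.9% over all bins with a coding TSS. It carried H3K4me3 in both replicates in 25.8% of cases against 22.9%. Clustered genes had a median of 105 kb and isolated genes of 120 kb, with a promoter at the other end in 29.7% and 19.5% of cases. Zfp277 alone held 19 of the 87 isolated interactions, at 110 to 255 kb and 1 of them to a promoter bin. Its bin is shared with Dock4, and the class values without Zfp277 were not computed. Of the 27 genes with more than 1 interaction, 22 had all of them on one side of the gene, and neighboring interactions of a gene are not independent calls.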

How the data were processed

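Wild-type mouse microglia were profiled by H3K4me3 ChIP-seq, input and PLAC-seq, 2 libraries per assay, and the labels gave assay and genotype. The Zfp genes, the gene lists and the definition of a cluster were chosen with earlier results of these data known.

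Each H3K4me3 library has a peak list of its own, deposited without pooling. The submitters' processing notes name Bowtie2, HOMER and mm10, with versions not given in the sources used here. According to the methods, peaks of the ENCODE pipeline guided MAPS, and the deposited lists may be other calls. The deposited signal is tags per 10 M mapped tags, the deposited tag count is a whole number, and the authors scaled the input signal to ChIP depth. Fold over input (a deposited ratio) was at least 4.09 and 4.0. A p-value, a focus ratio (a fraction) and a peak score were also deposited by the authors. Depth was recovered as tag count over signal.

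The authors called interactions with MAPS between 5 kb bins on both PLAC-seq libraries combined. The deposited read pair count, expected signal and false discovery rate (an adjusted p-value of at most 0.01) were used, and the deposited −log10 p-value per cluster was not.

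Genes came from GENCODE M21 basic (GRCm38, which is mm10). Of 21864 protein-coding gene identifiers, 20720 were autosomal, merged by symbol to 20696 genes. Clusters were built by single linkage at 250 kb. Promoters are RefSeq windows. Motifs were chosen, and 7 looser KRAB patterns added, after the data were seen. No test was made. Genes were named by rank of interactions (10, and those tied with the last, added after their values were seen), of H3K4me3 (8 tallest, 5 lowest, 5 tallest without interaction), of replicate difference (5) and of ratio at 20 or more pairs (5), or for a peak in 1 replicate, a place in the 3 clusters with the most genes numbered below 600 or a known role. The functions for peaks, bins and clusters were tested on simulated data. Python 3.11.15, pandas 2.3.3, numpy 2.4.6, scipy 1.17.1 and matplotlib 3.10.9 were used. Alternatives were windows of 500 bp and 2 kb, fold of at least 8, each replicate alone, stricter interactions and other cluster definitions.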

Additional observations from a re-analysis of the deposited data

How the results depend on the processing

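Of 72 recomputed values for 9 results, 57 stayed within the spread used and 15 did not. For counts the spread was a wide fixed band, from 117 to 264 for the marked genes among 188, which could hardly be left. For shares it was an exact 95% binomial interval over genes, and for medians the SD of the single-replicate medians. The tally depends on these bands and does not measure error between samples. Clustered genes had interactions less often than isolated genes in each of 11 alternative settings. Only the stricter interaction lists and the other cluster definitions among these altered interactions or classes. The settings for peaks left both as they were, so the order of the interaction shares could hardly change there. In each of the 8 settings that bear on peaks or clusters, clustered genes were marked more often and had a lower median H3K4me3. The peak settings left the marked calls nearly as they were, so the order of the marked shares could hardly change there. The binomial intervals of these shares overlapped, from 89.8% to 98.5% for clustered and from 82.2% to 96.3% for isolated genes. Zfp genes with an interaction numbered 26 under a false discovery limit of 0.0001 and 26 with summits and single interactions only, against 43. The share of marked isolated genes with an interaction fell to 18.6% under each of these and to 22.9% with at least 20 read pairs, beside 12.3%, 12.3% and 13.2% for clustered genes. The median H3K4me3 of clustered genes was 190.5 with a 2 kb window and 177.2 with a cluster distance of 100 kb. That of isolated genes was 228.7 at 100 kb, 235.8 at 500 kb and 207.6 with neighbors numbered below 600 only. With 1 replicate left out, the medians ran from 201.0 to 202.5 for all marked Zfp genes, from 185.4 to 187.6 for clustered and from 218.2 to 220.9 for isolated ones. The cause of these shifts was not tested. No paired analysis was possible because no groups of samples were compared and no result came from a test. The unknown depth of PLAC-seq limits which interactions could be called.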
